A study of Mus musculus with 8 samples.

Results

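Cytochrome P450 genes encode heme enzymes that insert an oxygen atom into fatty acids, sterols, retinoids and foreign chemicals. They were measured here as kidney RNA in polycystic and wild-type mice treated with flavopiridol or with its vehicle. Members were all genes whose symbol is Cyp, a family number, a subfamily letter and a gene number, without the vitamin D hydroxylases Cyp24a1 and Cyp27b1, that reached at least 1 FPKM in at least 2 libraries. FPKM scales fragment counts by transcript length and library size, so levels of different genes can be set side by side. Of 84 symbols that match, 2 were left out by name, and 35 of the remaining 82 reached the level, out of 20240 genes with a unique symbol in the files. The 35 fall into 9 families and 19 subfamilies, with 16 in family 2 and 12 in family 4. A pseudogene (Cyp2d37-ps) and an antisense transcript (Cyp4x1os, which encodes no P450) are among them because the rule reads symbols.

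The 4 groups had 2 libraries each, all from whole kidneys of C57BL/6 mice. PKD_FP were mice with autosomal dominant polycystic kidney disease (ADPKD) given flavopiridol, an inhibitor of cyclin-dependent kinases. PKD_DMSO were ADPKD mice given the vehicle DMSO, WT_FP were wild-type mice given flavopiridol, and WT_DMSO were wild-type mice given DMSO. The mutated gene, the dose, the age and whether replicates are separate animals could not be read from the labels, so p-values measure the spread between these samples, which may be technical.

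Most kidney P450 RNA is known to come from the proximal tubule, whose cells oxidise fatty acids for energy. There the Cyp4a enzymes hydroxylate the ends of fatty acids, arachidonic acid included, and Cyp2c44 and Cyp2j enzymes turn arachidonic acid into epoxides that widen vessels and act on salt transport. Enzymes of the Cyp2d, Cyp2e and Cyp2a subfamilies oxidise drugs, solvents and steroids, while family members such as Cyp27a1, Cyp7b1 and Cyp39a1 act on sterols. Microsomal P450s take electrons from a reductase encoded by Por, some with help from cytochrome b5, and many of their genes answer to lipid and xenobiotic sensors of the nuclear receptor class or to the aryl hydrocarbon receptor.

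The defining feature of the family is the loop that holds the heme iron through a cysteine. A search of the GENCODE M21 coding sequences (GRCm38) for phenylalanine, glycine, cysteine and glycine at the spacing of that loop found it in 31 of the 33 members with a coding sequence, and not in Cyp20a1 or Cyp2s1. It was split by an intron in 25 members and lay within 1 exon in 6. The cysteine codon was TGC in 21 members and TGT in 10. The 30 coding bases of the loop are shown for the members that passed a test below and for Cyp4a12b, because they show how alike neighbouring members are whose levels moved in different directions. The cysteine codon is in capitals, and the span includes the intron where there is one.
Cyp4a12a (chr4:115328986-115331846, plus strand): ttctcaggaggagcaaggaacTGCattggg
Cyp4a12b (chr4:115435240-115438069, plus strand): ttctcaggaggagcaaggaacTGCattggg
Cyp4a31 (chr4:115574950-115577948, plus strand): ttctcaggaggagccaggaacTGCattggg
Cyp4f13 (chr17:32924942-32925340, minus strand): ttctcagcggggaccaggaacTGCatagga
Cyp4f16 (chr17:32550798-32551068, plus strand): ttttctgccgggcccaggaacTGCatagga
Cyp4f17 (chr17:32528342-32528729, plus strand): ttttctgctgggcctaggaacTGCatagga
Cyp4f18 (chr8:71988725-71989076, minus strand): ttctcggctgggcccaggaacTGCatagga
Cyp4v3 (chr8:45307107-45308407, minus strand): ttttctgctggacctcgaaacTGTattggt
Cyp2d9 (chr15:82456466-82456595, plus strand): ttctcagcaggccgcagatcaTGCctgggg
Cyp2d12 (chr15:82559053-82559182, plus strand): ttttcagcaggccgcagatcaTGCctgggg
Cyp2d22 (chr15:82371706-82371831, minus strand): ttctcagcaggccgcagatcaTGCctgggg
Cyp2d40 (chr15:82760065-82760194, minus strand): ttctcagcaggccgtcgagcaTGTctgggt
Cyp39a1 (chr17:43731982-43732011, plus strand): tttggaggcgggaagttccagTGTcctgga

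The loop was the same, base for base, in Cyp4a12a and Cyp4a12b, and in Cyp2d9 and Cyp2d22. Over the whole coding sequence, identity was 98.49% between Cyp4a12b and Cyp4a12a, 96.59% between Cyp4a10 and Cyp4a31 and 92.13% between Cyp2d9 and Cyp2d12. Of all stretches of 50 bases in the whole Cyp4a12b transcript, untranslated ends included, 49.45% also occur in that of Cyp4a12a. The deposited values of this pair could therefore share or split reads and are uncertain one by one. The matching share was 15.34% for Cyp4a10 in Cyp4a31, 10.7% for Cyp2d9 in Cyp2d12 and 2.39% for Cyp4f16 in Cyp4f17.

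Promoters from RefSeq (GRCm38.p6, 250 bases before to 50 after the annotated start) were found for 23 of the 35 members. Among them are 2 pairs from 1 chromosome each that were called in opposite directions between PKD_DMSO and WT_DMSO, Cyp2d9 against Cyp2d40 and Cyp4f16 against Cyp4f13. The Cyp2d pair had the same sign between PKD_FP and WT_FP, with log2 fold changes of -0.88 for Cyp2d9, which did not pass, and -1.16 for Cyp2d40. The windows below show 100 bases of each, with the longest run shared by the pair in capitals.
Cyp2d9 (chr15:82452270-82452369, plus strand): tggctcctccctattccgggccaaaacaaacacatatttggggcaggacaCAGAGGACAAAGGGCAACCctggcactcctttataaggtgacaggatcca
Cyp2d40 (chr15:82764193-82764292, minus strand): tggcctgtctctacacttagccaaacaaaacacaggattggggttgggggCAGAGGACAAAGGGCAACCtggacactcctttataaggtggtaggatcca
Cyp4f16 (chr17:32536442-32536541, plus strand): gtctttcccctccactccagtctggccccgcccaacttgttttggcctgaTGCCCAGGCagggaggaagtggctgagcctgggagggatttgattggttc
Cyp4f13 (chr17:32947424-32947523, minus strand): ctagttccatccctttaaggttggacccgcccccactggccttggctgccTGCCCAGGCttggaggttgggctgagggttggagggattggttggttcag

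The Cyp2d pair shared a run of 19 bases, at position -57 from the annotated start in Cyp2d9 and at -120 in Cyp2d40, and 3 of 32851 promoters hold it on either strand. The longest run of the Cyp4f pair was 9 bases, and 211 of the 32851 promoters hold it. The TATA motif TATAAA, searched on both strands, was in 7 of the 24 promoters of the 23 members (Cyp2j13 has more than 1), against 13.616% of all promoters of that length. It lay at position -28 in Cyp2d9, -29 in Cyp2a5, -31 in Cyp2d26 and -31 in Cyp2e1. In the others it lay farther from the start, at -91 in Cyp2d40, -128 in Cyp2j5 and -139 in Cyp26b1. In Cyp2d40 the motif follows the shared run at the same spacing as in Cyp2d9. Run and motif are thus shifted together against the annotated start. The nuclear receptor half-site AGGTCA was in 4 member promoters, against 16.255% of all promoters. GCGTG, the core letters of the aryl hydrocarbon receptor site, was in 8 member promoters, against 32.386%. The hepatocyte nuclear factor half-site GTTAAT was in 2, against 7.099%, and the STAT motif TTCNNNGAA in 3, against 8.298%, with each motif counted on its own on both strands. A match here is a description of letters and not a bound site.

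Cell markers were read in the same libraries. The 23 proximal tubule markers summed to 2559 and 1811 FPKM in PKD_FP, 3912 and 2435 in PKD_DMSO, 13455 and 6237 in WT_FP and 9958 and 13686 in WT_DMSO, so the genotypes did not overlap. The 15 macrophage and myeloid markers summed to between 812 and 1512 FPKM in PKD libraries, against 97.2 to 169 FPKM in WT libraries. The 8 fat markers summed to 635 FPKM in WT_FP replicate 2 and 102 in PKD_FP replicate 2, against 4.68 to 63.4 in the other libraries, with the brown fat gene Ucp1 at 99.4 FPKM in WT_FP replicate 2. Of the 12 hepatocyte markers, which summed to 190 to 424 FPKM in PKD libraries and 213 to 304 in WT libraries, Alb stayed between 0.03 and 1.19 FPKM and Serpina3k, Ahsg, Tat and Cps1 were at or near 0, while Serpina1a was at 105 to 353 FPKM, Ttr at 20.5 to 76.4, Apoc3 at 10.2 to 26.6 and Apoa2 at 3.09 to 17.3. Fgb was at 8.55 to 19.4 FPKM in PKD libraries and 0.62 to 1.75 in WT libraries. The 8 adrenal markers summed to 32.1 to 40.3 FPKM in PKD libraries and 54.0 to 63.1 in WT libraries, most of it Fdx1, with the adrenal factor Nr5a1 at no more than 0.02 and Mrap at 11.0 in WT_FP replicate 2. Every library expressed the Y-linked Ddx3y, at 13.7 to 21.8 FPKM, with Xist at no more than 0.13. Deposited values summed to between 485924 and 572661 FPKM per library, and read depth is unknown.

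The P450 genes together were lowest in polycystic kidneys given flavopiridol. Their summed level was 702 and 450 FPKM in PKD_FP, 1260 and 845 in PKD_DMSO, 1695 and 1040 in WT_FP and 1107 and 1710 in WT_DMSO. Both PKD_FP libraries lay below the other 6, while PKD_DMSO overlapped WT_DMSO and WT_FP overlapped WT_DMSO. Group means were 576 ± 178 FPKM in PKD_FP, 1052 ± 294 in PKD_DMSO, 1368 ± 463 in WT_FP and 1409 ± 426 in WT_DMSO (SD, n = 2 each). With 2 libraries against 2, an exact permutation test cannot give a two-sided p below 0.33, so the sums are given as values.

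In group means the P450 sum was lower in PKD than in WT, though single libraries of PKD_DMSO and WT_DMSO overlapped. Relative to WT, it was lower by less than the sum of proximal tubule markers. The P450 sum divided by the marker sum was 0.274 and 0.249 in PKD_FP, 0.322 and 0.347 in PKD_DMSO, 0.126 and 0.167 in WT_FP and 0.111 and 0.125 in WT_DMSO, so every PKD library lay above every WT library. The marker sum is weighted to abundant genes such as Miox, at 203 and 85.9 FPKM in PKD_DMSO, against 2611 and 2832 in WT_DMSO. Of the 23 markers, 9 were called lower and 0 higher in PKD_DMSO against WT_DMSO. Not all were lower in level, with Aqp1 at 357 and 382 FPKM in PKD_DMSO, against 183 and 275 in WT_DMSO. In whole-kidney RNA, fewer cells of a type and less RNA per cell cannot be told apart.

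**Figure D1:**
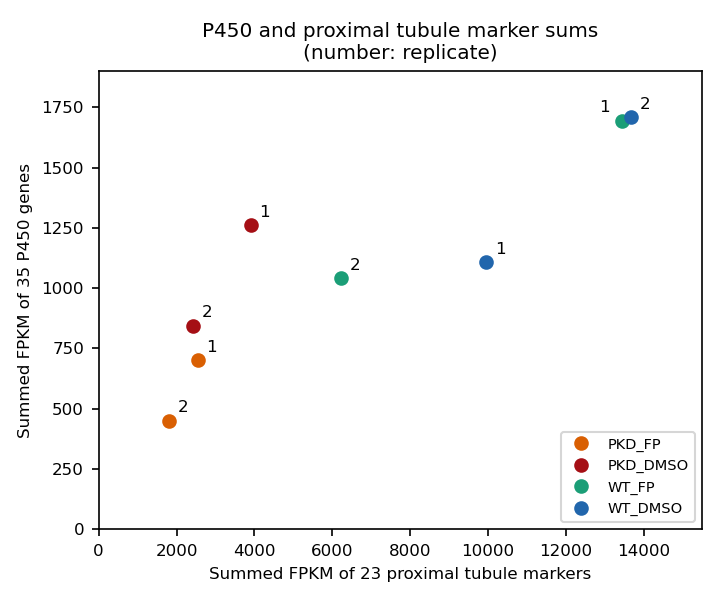
Summed FPKM of the 35 P450 genes (vertical axis) against summed FPKM of 23 proximal tubule markers (horizontal axis), 1 point per library, with the replicate number beside it. All 4 PKD libraries sit left of all 4 WT libraries on the marker axis, and their P450 sums span 450 to 1260 FPKM.

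Expression was concentrated in few members. The 7 most abundant, Cyp2d26, Cyp4a10, Cyp4a14, Cyp4a31, Cyp2j5, Cyp2e1 and Cyp4b1, held 76.233% of the members' mean sum, with mean levels over 8 libraries between 76.5 and 175 FPKM. Of the 35 members, 12 lie on chromosome 4, 6 on chromosome 15 and 5 on chromosome 17, and 5 of these 7 leading members are on chromosome 4.

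**Figure D2:**
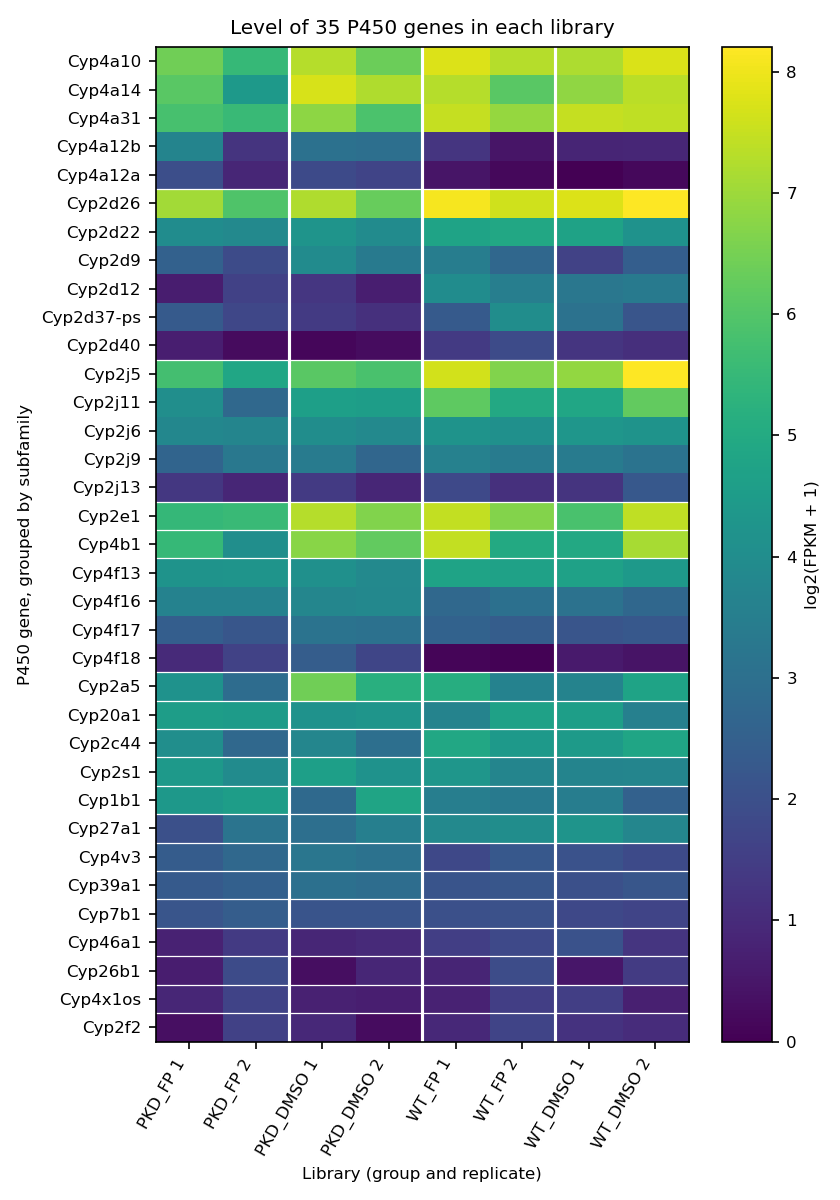
Level of each P450 gene as log2(FPKM + 1), with genes in rows grouped by subfamily (thin lines) and libraries in columns grouped by genotype and drug (thick lines). The highest levels are those of Cyp2d26 and Cyp2j5 in WT libraries, and the Cyp2d12 row is dark in the PKD libraries, at 0.59 to 1.97 FPKM, and lighter in the WT libraries, at 8.62 FPKM or more.

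Genes were compared with limma on log2(FPKM + 1) over all 8 libraries, with Benjamini-Hochberg adjustment over the 14391 genes at or above the same level and a threshold of 0.05 on the adjusted p. Fold changes on this scale understate those of low genes. Between PKD_DMSO and WT_DMSO, 7 members rose (Cyp4a12a, Cyp2d9, Cyp4f18, Cyp4v3, Cyp39a1, Cyp4f16 and Cyp4f17), 3 fell (Cyp2d12, Cyp2d40 and Cyp4f13) and 25 did not pass. Of these, Cyp4a12a and Cyp4f18 reached 1 FPKM in PKD libraries only and Cyp2d40 in WT libraries only, so each was tested because of the genotype in which it is high. Among the 32 members that reached it in both genotypes, 5 rose and 2 fell. With all 35 counted, the called share is 28.6% of the members, against 22.3% of all genes tested. In each direction it is 20.0% higher, against 14.8% of all genes, and 8.57% lower, against 7.52%, so the members' shares lie near those of all genes. The median log2 fold change of the members was -0.31, against 0.12 for all genes. Over all genes 2130 were called higher and 1082 lower. With median-of-ratios scaling the split was 1524 and 1358, and with quantile normalization 1700 and 1522.

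Between PKD_FP and WT_FP, 2 members rose (Cyp4f18 and Cyp4f16), 4 fell (Cyp2d12, Cyp4a31, Cyp2d40 and Cyp2d22) and 29 did not pass. Among the 32 members that reached 1 FPKM in both genotypes, which leaves out Cyp4f18 and Cyp2d40, 1 rose and 3 fell. With all 35 counted, the called share is 17.1% of the members, against 13.9% of all genes. The share was 5.71% higher, against 8.71% of all genes, and 11.4% lower, against 5.23%. The members' median was -0.53, against 0.07 for all genes. The FPKM of PKD_FP and WT_FP did not overlap in 7 members that were higher and 18 that were lower, against 34.6% and 25.2% of all genes (59.8% in either direction). PKD_DMSO and WT_DMSO did not overlap in 11 members that were higher and 13 that were lower, against 41.2% and 24.5% of all genes (65.7% in either direction).

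These counts rest on single libraries. Without PKD_DMSO replicate 1, none of the genes called higher between PKD_DMSO and WT_DMSO kept its call. Without PKD_DMSO replicate 2, only Cyp4f18 among them kept it. Cyp4f16 and Cyp4v3 kept it without WT_DMSO replicate 1, and Cyp2d9, Cyp39a1 and Cyp4f17 without WT_DMSO replicate 2. The 3 lower calls became 0 without PKD_DMSO replicate 2 and 1 without either WT_DMSO replicate. Between PKD_FP and WT_FP, the 4 lower calls became 0 without WT_FP replicate 1, 1 without either PKD_FP replicate and 2 without WT_FP replicate 2 or either PKD_DMSO replicate. The 2 higher calls there became 0 or 1 in each of the 8 fits that left out a library. The calls between PKD_FP and WT_FP did not hold without WT_FP replicate 2 and PKD_FP replicate 2, the libraries highest in fat markers. That step left 1 library in each of these groups, so an effect of the smaller sample cannot be told apart. Between PKD_DMSO and WT_DMSO the same step ended the calls of Cyp2d40 (adjusted p = 0.0539) and Cyp4f13 (0.0933). A fit to only the groups compared ended those of Cyp2d40 (adjusted p = 0.0535) and Cyp4f13 (0.0933) under DMSO and of Cyp2d40 (0.0818), Cyp4f16 (0.0791) and Cyp4f18 (0.0806) under flavopiridol. With no filter on low values, Cyp2d9 (adjusted p = 0.0543) and Cyp4f13 (0.0532) did not pass under DMSO. In that fit Cyp2d22 (0.0542), Cyp4f16 (0.0575) and Cyp4f18 (0.0637) did not pass under flavopiridol. Quantile normalization ended the calls of Cyp2d9 (adjusted p = 0.0902), Cyp39a1 (0.0535) and Cyp4f17 (0.0821) under DMSO and Cyp4f18 (0.0544) under flavopiridol. Median-of-ratios scaling ended those of Cyp2d9 under DMSO (adjusted p = 0.0655) and Cyp4f18 under flavopiridol (0.0519).

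**Figure D3:**
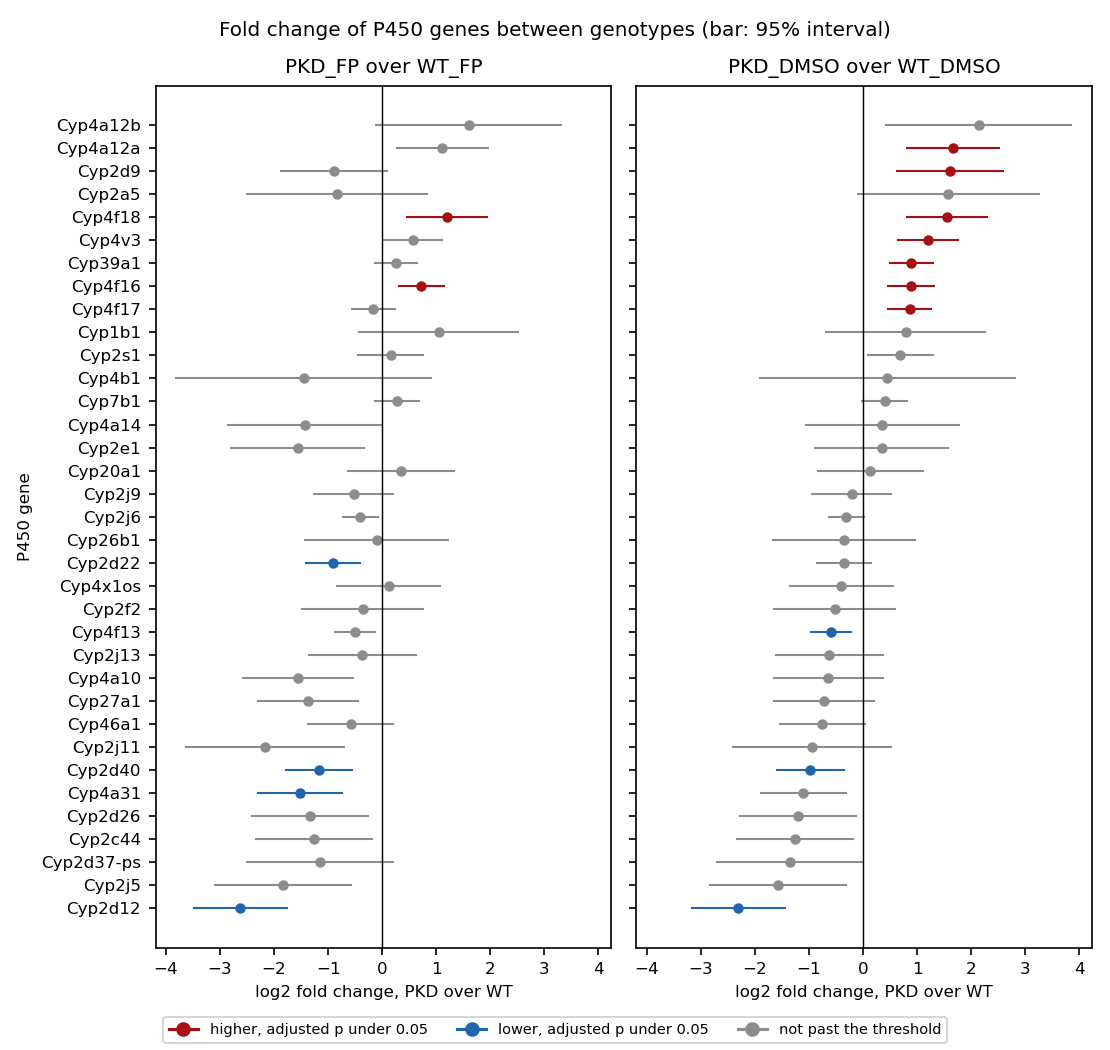
Log2 fold change of each P450 gene, PKD over WT, under flavopiridol (left) and under DMSO (right), with the 95% interval of the limma fit as a bar and called genes in colour. Cyp2d12 lies farthest left in both panels, at -2.63 and -2.31, and the 7 genes called higher under DMSO lie between 0.87 and 1.67.

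Of the 5 Cyp4a genes, the fatty acid omega-hydroxylases, 0 rose and 1 fell in PKD_FP against WT_FP, and 1 rose and 0 fell in PKD_DMSO against WT_DMSO. Of all genes tested, 13.9% were called in the first comparison and 22.3% in the second. Of the abundant Cyp4a10, Cyp4a14 and Cyp4a31, with mean levels of 137, 118 and 114 FPKM, Cyp4a31 fell in PKD_FP and the others did not pass. The low Cyp4a12a, known in mouse kidney as an androgen-dependent maker of hydroxylated arachidonic acid, rose in PKD_DMSO. The sum of the 5 genes was 168 ± 77.0 FPKM in PKD_FP, 389 ± 132 in PKD_DMSO, 446 ± 149 in WT_FP and 491 ± 74.0 in WT_DMSO (SD, n = 2 each).

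Cyp4a31 (chr4:115563627-115579015) was at 54.7 and 45.8 FPKM in PKD_FP, 111 and 58.2 in PKD_DMSO, 178 and 118 in WT_FP and 178 and 170 in WT_DMSO. Every PKD library was below every WT library. Its log2 fold change was -1.52 (SE 0.33, adjusted p = 0.0309) between PKD_FP and WT_FP and -1.10 (SE 0.33, adjusted p = 0.0541) between PKD_DMSO and WT_DMSO. The call was lost without WT_FP replicate 1 or either PKD_FP replicate (adjusted p between 0.0905 and 0.150).

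Cyp4a10, whose promoter is a classical target of the fatty acid sensor PPAR alpha, was at 84.7 and 44.4 FPKM in PKD_FP, 156 and 80.6 in PKD_DMSO, 216 and 154 in WT_FP and 146 and 211 in WT_DMSO. PKD_FP lay below both WT groups, while PKD_DMSO overlapped WT_DMSO. Between PKD_FP and WT_FP the log2 fold change was -1.56 (SE 0.43, adjusted p = 0.0563). Cyp4a14, another target of that sensor, was at 67.7 and 20.7 FPKM in PKD_FP, 206 and 148 in PKD_DMSO, 155 and 67.9 in WT_FP and 114 and 162 in WT_DMSO. Its levels in PKD_DMSO overlapped those in WT_DMSO (log2 fold change 0.36, SE 0.60, adjusted p = 0.690), and its 2 lowest libraries were those of PKD_FP.

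Cyp4a12a (chr4:115299046-115332815) was at 2.93 and 0.86 FPKM in PKD_FP, 2.57 and 2.23 in PKD_DMSO, 0.38 and 0.13 in WT_FP and 0.00 and 0.14 in WT_DMSO. It reached 1 FPKM in PKD libraries only, so it was tested because of its level there. Its log2 fold change between PKD_DMSO and WT_DMSO was 1.67 (SE 0.36, adjusted p = 0.0209), and without any 1 of the 4 libraries compared the adjusted p was between 0.0641 and 0.107. Its near copy Cyp4a12b was at 12.0 and 1.37 FPKM in PKD_FP, 7.33 and 6.93 in PKD_DMSO, 1.43 and 0.37 in WT_FP and 0.82 and 0.86 in WT_DMSO. PKD_DMSO lay above both WT groups in Cyp4a12b, but the change did not pass (log2 fold change 2.14, SE 0.72, adjusted p = 0.0747). Of 7 other androgen-regulated or sex-biased kidney genes tested, 0 rose and 4 fell in PKD_FP against WT_FP, and 1 rose and 3 fell in PKD_DMSO against WT_DMSO. Among those that fell in both was the androgen-induced Kap, at 3039 and 4300 FPKM in PKD_FP, 2696 and 1221 in PKD_DMSO, 15475 and 19670 in WT_FP and 26700 and 25856 in WT_DMSO. The gene of this list that rose in PKD_DMSO was Gusb (log2 fold change 1.15, SE 0.23, adjusted p = 0.0169). Odc1 did not pass in that comparison, and the part of androgen in these levels was not tested.

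Cyp4b1, a fatty acid and xenobiotic hydroxylase next to the Cyp4a genes on chromosome 4, was the most variable of the abundant members. It was at 44.0 and 15.5 FPKM in PKD_FP, 106 and 74.2 in PKD_DMSO, 173 and 30.7 in WT_FP and 29.9 and 139 in WT_DMSO. The WT replicates differed more from each other than the genotypes did, and no comparison of this gene passed the test. The high WT libraries, WT_FP replicate 1 and WT_DMSO replicate 2, were also those with the highest proximal tubule marker sums. They had the lower endothelial marker sums of their groups, 302 against 534 FPKM in WT_FP and 249 against 497 FPKM in WT_DMSO.

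The Cyp4f genes, a subfamily known for inactivating leukotriene B4 and hydroxylating long-chain fatty acids, changed in both directions while their sum stayed level. The sum was 34.7 ± 0.354 FPKM in PKD_FP, 38.5 ± 3.23 in PKD_DMSO, 36.8 ± 0.127 in WT_FP and 33.5 ± 4.36 in WT_DMSO (SD, n = 2 each). Under DMSO, Cyp4f16, Cyp4f17 and Cyp4f18 rose in PKD and Cyp4f13 fell. Under flavopiridol, Cyp4f16 and Cyp4f18 rose.

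Cyp4f16 (chr17:32536545-32551798) was at 11.4 and 11.4 FPKM in PKD_FP, 12.6 and 13.2 in PKD_DMSO, 5.90 and 7.17 in WT_FP and 7.52 and 5.63 in WT_DMSO. Every PKD library was above every WT library. That was a log2 fold change of 0.72 (SE 0.18, adjusted p = 0.0413) between PKD_FP and WT_FP and 0.89 (SE 0.18, adjusted p = 0.0169) between PKD_DMSO and WT_DMSO. The first call was lost without any 1 of the PKD or WT_FP libraries (adjusted p between 0.0697 and 0.202) and the second without WT_DMSO replicate 2 or either PKD_DMSO replicate (between 0.0644 and 0.116).

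Cyp4f13 (chr17:32924688-32947415), the most abundant of the 4, ran the other way. It was at 17.7 and 18.0 FPKM in PKD_FP, 16.2 and 13.4 in PKD_DMSO, 26.0 and 25.2 in WT_FP and 25.1 and 20.6 in WT_DMSO, again with no overlap between genotypes. Its log2 fold change was -0.59 (SE 0.16, adjusted p = 0.0388) between PKD_DMSO and WT_DMSO, a call that was lost without any 1 of the 8 libraries (adjusted p between 0.0557 and 0.231). Between PKD_FP and WT_FP it was -0.50 (SE 0.16, adjusted p = 0.0798).

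Cyp4f17 (chr17:32506192-32530158) was at 4.48 and 3.61 FPKM in PKD_FP, 7.68 and 7.29 in PKD_DMSO, 4.92 and 4.35 in WT_FP and 3.47 and 3.82 in WT_DMSO. It was high in PKD_DMSO alone, with the other 6 libraries between 3.47 and 4.92 FPKM. In PKD_DMSO against WT_DMSO its log2 fold change was 0.87 (SE 0.17, adjusted p = 0.0154), and the call was lost without WT_DMSO replicate 1 or either PKD_DMSO replicate (adjusted p between 0.0623 and 0.0932).

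Cyp4f18 (chr8:71988482-72009668), the leukotriene B4 hydroxylase of mouse myeloid cells, was at 0.95 and 2.07 FPKM in PKD_FP, 4.30 and 2.30 in PKD_DMSO, 0.08 and 0.04 in WT_FP and 0.50 and 0.35 in WT_DMSO. It reached 1 FPKM in PKD libraries only, so it was tested because of its level there. Its log2 fold change was 1.21 (SE 0.31, adjusted p = 0.0481) between PKD_FP and WT_FP and 1.56 (SE 0.31, adjusted p = 0.0175) between PKD_DMSO and WT_DMSO. Of the 15 macrophage and myeloid markers, 12 were also called higher in PKD_FP and 14 in PKD_DMSO, with none lower. Their part in the Cyp4f18 result was not tested. The first call was lost without any 1 of the 8 libraries (adjusted p between 0.0548 and 0.221) and the second without either WT_DMSO replicate or PKD_DMSO replicate 1 (between 0.0586 and 0.0747).

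Cyp4v3 (chr8:45305801-45333163), the mouse counterpart of a human fatty acid hydroxylase gene mutated in a crystalline retinal dystrophy, was at 4.28 and 5.79 FPKM in PKD_FP, 8.23 and 7.58 in PKD_DMSO, 2.41 and 3.80 in WT_FP and 3.18 and 2.57 in WT_DMSO. The PKD libraries all lay above the WT libraries. The log2 fold change was 1.20 (SE 0.23, adjusted p = 0.0151) between PKD_DMSO and WT_DMSO and 0.57 (SE 0.23, adjusted p = 0.149) between PKD_FP and WT_FP. Without WT_DMSO replicate 2 or either PKD_DMSO replicate, the adjusted p of the first was between 0.0641 and 0.0902.

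None of the arachidonic acid epoxygenases passed the test between genotypes in the fit to all 8 libraries. Cyp2c44 under DMSO and Cyp2j5 under flavopiridol passed in some of the alternative fits. The FPKM of all PKD libraries lay below those of all WT libraries in Cyp2j5, Cyp2j11, Cyp2j6 and Cyp2c44, and the genotypes overlapped in Cyp2j9 and Cyp2j13. The 5 Cyp2j genes summed to 72.3 ± 23.1 FPKM in PKD_FP, 108 ± 13.0 in PKD_DMSO, 230 ± 103 in WT_FP and 284 ± 155 in WT_DMSO (SD, n = 2 each). Cyp2j5, the main epoxygenase of mouse proximal tubule, was at 53.5 and 28.2 FPKM in PKD_FP, 67.1 and 56.1 in PKD_DMSO, 201 and 99.9 in WT_FP and 116 and 290 in WT_DMSO. Every PKD library was below every WT library. The log2 fold change was -1.84 (SE 0.53, adjusted p = 0.0644) between PKD_FP and WT_FP and -1.57 (SE 0.53, adjusted p = 0.0757) between PKD_DMSO and WT_DMSO.

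Cyp2j11 was at 15.5 and 5.77 FPKM in PKD_FP, 23.6 and 22.6 in PKD_DMSO, 70.2 and 30.2 in WT_FP and 27.9 and 73.6 in WT_DMSO. It had the same order of genotypes, with a log2 fold change of -2.16 (SE 0.61, adjusted p = 0.0624) between PKD_FP and WT_FP. Cyp2j6 was at 12.9 and 12.3 FPKM in PKD_FP, 15.2 and 13.6 in PKD_DMSO, 17.7 and 16.3 in WT_FP and 18.8 and 17.4 in WT_DMSO, also without overlap between genotypes. The difference was small, with a log2 fold change of -0.40 (SE 0.14, adjusted p = 0.0954) between PKD_FP and WT_FP. Cyp2j13 was at 1.53 and 0.84 FPKM in PKD_FP, 1.62 and 0.84 in PKD_DMSO, 2.51 and 1.21 in WT_FP and 1.36 and 3.82 in WT_DMSO, with overlap, and Cyp2j9 ranged from 5.31 to 11.2 FPKM over the 8 libraries.

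Cyp2c44 (Cyp2c23 in RefSeq), the Cyp2c epoxygenase of mouse kidney, was at 15.4 and 5.83 FPKM in PKD_FP, 12.6 and 7.04 in PKD_DMSO, 29.3 and 20.4 in WT_FP and 21.3 and 27.2 in WT_DMSO. The genotypes did not overlap. The log2 fold change was -1.26 in both genotype comparisons (SE 0.45 each), with adjusted p = 0.111 between PKD_FP and WT_FP and 0.0880 between PKD_DMSO and WT_DMSO.

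**Figure D4:**
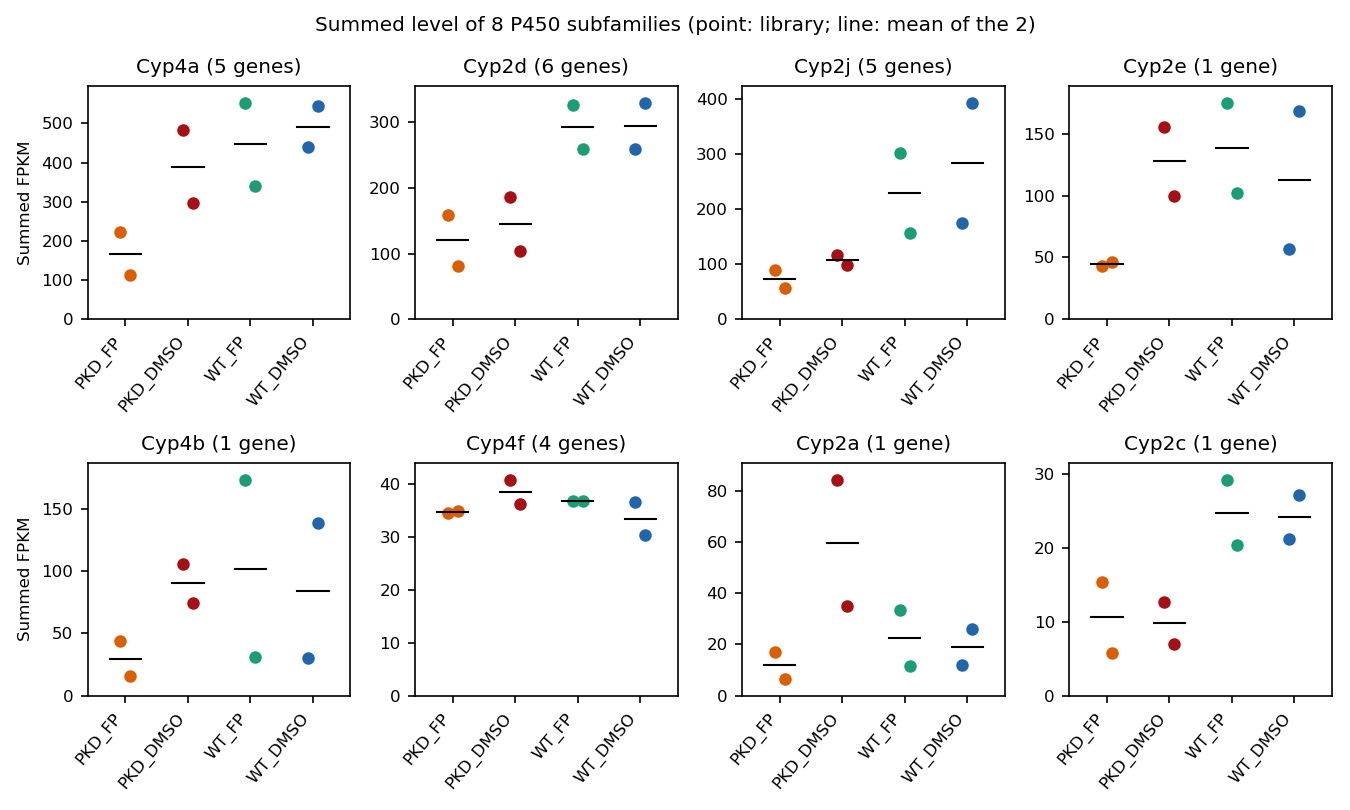
Summed FPKM of the members of 8 P450 subfamilies, 1 point per library, with a line at the mean of the 2 libraries of a group. Cyp2d, Cyp2j and Cyp2c sums of PKD libraries lie below those of WT libraries, Cyp4f sums stay between 30.4 and 40.8 FPKM, and the Cyp2a point at 84.3 FPKM is PKD_DMSO replicate 1.

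The Cyp2d genes, a cluster on chromosome 15 whose enzymes oxidise drugs and steroids, held members that moved in opposite directions. Cyp2d12 and Cyp2d40 fell in PKD under both treatments, Cyp2d22 fell in PKD_FP, and Cyp2d9 rose in PKD_DMSO. Proximal tubule markers moved with the members that fell, with 10 of 23 called lower in PKD_FP and 9 of 23 in PKD_DMSO and none higher, and their part in these results was not tested. The sum of the 6 was 120 ± 54.1 FPKM in PKD_FP, 145 ± 57.7 in PKD_DMSO, 293 ± 47.7 in WT_FP and 295 ± 48.9 in WT_DMSO (SD, n = 2 each).

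Cyp2d12 (chr15:82555043-82559413) was at 0.59 and 1.97 FPKM in PKD_FP, 1.48 and 0.61 in PKD_DMSO, 15 and 10.3 in WT_FP and 8.62 and 9.18 in WT_DMSO. Every PKD library lay below every WT library. It had the largest fall among the called members in both genotype comparisons, with a log2 fold change of -2.63 (SE 0.36, adjusted p = 0.0107) between PKD_FP and WT_FP and -2.31 (SE 0.36, adjusted p = 0.00865) between PKD_DMSO and WT_DMSO. The first call was lost without WT_FP replicate 1 (adjusted p = 0.0657) and the second without PKD_DMSO replicate 2 (0.0667).

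Cyp2d9 (chr15:82452377-82456827), known in mouse liver as a male-specific testosterone hydroxylase, was at 4.87 and 2.65 FPKM in PKD_FP, 14.4 and 9.39 in PKD_DMSO, 10.1 and 5.61 in WT_FP and 2.08 and 4.51 in WT_DMSO. PKD_DMSO lay above WT_DMSO and overlapped WT_FP, and PKD_FP overlapped WT_DMSO. PKD_FP lay below WT_FP, the reverse of the order under DMSO, with a log2 fold change of -0.88 (SE 0.41, adjusted p = 0.196). The rise between PKD_DMSO and WT_DMSO was a log2 fold change of 1.62 (SE 0.41, adjusted p = 0.0350), and the call was lost with median-of-ratios scaling (adjusted p = 0.0655), with quantile normalization (0.0902), with no filter on low values (0.0543) and without WT_DMSO replicate 1 or either PKD_DMSO replicate (between 0.107 and 0.146).

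Cyp2d40 (chr15:82759833-82764122) was at 0.61 and 0.19 FPKM in PKD_FP, 0.11 and 0.21 in PKD_DMSO, 1.61 and 2.69 in WT_FP and 1.43 and 1.13 in WT_DMSO. It reached 1 FPKM in WT libraries only, so it was tested because of its level there. The log2 fold change was -1.16 (SE 0.26, adjusted p = 0.0324) between PKD_FP and WT_FP and -0.97 (SE 0.26, adjusted p = 0.0392) between PKD_DMSO and WT_DMSO. The first was lost without any 1 of the PKD or WT_FP libraries (adjusted p between 0.0594 and 0.157), and the second without any 1 of the 4 libraries compared (up to 0.151).

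Cyp2d22, often set beside human CYP2D6, was at 14.8 and 13.7 FPKM in PKD_FP, 18.1 and 14.5 in PKD_DMSO, 26.2 and 29.3 in WT_FP and 25.5 and 17.3 in WT_DMSO. It lies at chr15:82370527-82380260. PKD_FP lay below WT_FP, with a log2 fold change of -0.91 (SE 0.21, adjusted p = 0.0355), while PKD_DMSO overlapped WT_DMSO (-0.36, SE 0.21, adjusted p = 0.260). The call was lost without any 1 of the PKD or WT_FP libraries (adjusted p between 0.0587 and 0.160). Cyp2d26, the most abundant P450 gene of these kidneys, was at 133 and 60.9 FPKM in PKD_FP, 150 and 78.3 in PKD_DMSO, 270 and 196 in WT_FP and 215 and 294 in WT_DMSO. All PKD libraries were below all WT libraries, but neither change passed, with a log2 fold change of -1.34 (SE 0.45, adjusted p = 0.0962) between PKD_FP and WT_FP and -1.20 (SE 0.45, adjusted p = 0.0994) between PKD_DMSO and WT_DMSO. The pseudogene Cyp2d37-ps ranged from 1.22 to 15.2 FPKM.

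Cyp2e1 and Cyp2a5, which oxidise ethanol and small solvents and coumarin and nicotine, did not pass in either genotype comparison. Cyp2e1 was at 42.6 and 46.6 FPKM in PKD_FP, 155 and 99.9 in PKD_DMSO, 175 and 102 in WT_FP and 56.7 and 169 in WT_DMSO. Both PKD_FP libraries were below the other 6. The log2 fold change was -1.56 (SE 0.52, adjusted p = 0.0932) between PKD_FP and WT_FP. Cyp2a5 was at 17.2 and 6.42 FPKM in PKD_FP, 84.3 and 34.9 in PKD_DMSO, 33.5 and 11.5 in WT_FP and 11.8 and 25.9 in WT_DMSO, highest in both PKD_DMSO libraries. Its log2 fold change between PKD_DMSO and WT_DMSO was 1.58 (SE 0.70, adjusted p = 0.151).

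Cyp2s1, an epithelial P450, was at 20.1 and 14.5 FPKM in PKD_FP, 23.6 and 17.3 in PKD_DMSO, 18.7 and 12.4 in WT_FP and 12.1 and 12.2 in WT_DMSO. PKD_DMSO lay above WT_DMSO without passing (log2 fold change 0.69, SE 0.25, adjusted p = 0.0944). Cyp2f2, known from airway club cells, stayed between 0.21 and 2.20 FPKM. Cyp20a1, whose substrate is not known, was at 22.7 and 21.5 FPKM in PKD_FP, 17.2 and 18.3 in PKD_DMSO, 11.7 and 24.9 in WT_FP and 23.2 and 11.0 in WT_DMSO, with the WT replicates at either end of the range.

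Among the sterol enzymes 1 of 4 passed a test. Cyp39a1 (chr17:43667372-43751431), a hydroxylase of oxysterols, was at 4.05 and 4.68 FPKM in PKD_FP, 7.23 and 6.69 in PKD_DMSO, 3.41 and 3.55 in WT_FP and 2.99 and 3.58 in WT_DMSO. All PKD libraries were above all WT libraries. The difference between PKD_DMSO and WT_DMSO was a log2 fold change of 0.90 (SE 0.17, adjusted p = 0.0136), and the call was lost without WT_DMSO replicate 1 or either PKD_DMSO replicate (adjusted p between 0.0584 and 0.0823) and with quantile normalization (0.0535).

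Cyp27a1, the mitochondrial sterol hydroxylase, was at 3.01 and 7.83 FPKM in PKD_FP, 6.98 and 10.7 in PKD_DMSO, 13.6 and 15.4 in WT_FP and 17.8 and 12.5 in WT_DMSO. The genotypes did not overlap, and the log2 fold change between PKD_FP and WT_FP was -1.37 (SE 0.39, adjusted p = 0.0625). Cyp7b1, an oxysterol hydroxylase, was at 3.45 and 4.33 FPKM in PKD_FP, 3.34 and 3.35 in PKD_DMSO, 2.97 and 3.07 in WT_FP and 2.40 and 2.19 in WT_DMSO. Its 8 values spanned only 2.19 to 4.33 FPKM, with every PKD library above every WT library and no comparison past the threshold. Cyp46a1, the cholesterol hydroxylase of brain, ranged from 0.72 to 3.21 FPKM.

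Cyp1b1, a steroid and hydrocarbon hydroxylase known from mesenchymal cells and as a target of the aryl hydrocarbon receptor, was at 19.7 and 22.9 FPKM in PKD_FP, 5.93 and 26.9 in PKD_DMSO, 10.4 and 9.24 in WT_FP and 10.1 and 4.85 in WT_DMSO. PKD_FP lay above WT_FP, while the PKD_DMSO replicates lay on either side of WT_DMSO replicate 1. The 7 fibroblast and pericyte markers summed to 756 and 1369 FPKM in PKD_FP, 488 and 1026 in PKD_DMSO, 217 and 287 in WT_FP and 282 and 109 in WT_DMSO, and their part in the Cyp1b1 levels was not tested. Cyp26b1, which breaks down retinoic acid, was at 0.58 and 2.69 FPKM in PKD_FP, 0.24 and 0.85 in PKD_DMSO, 0.81 and 2.72 in WT_FP and 0.40 and 1.67 in WT_DMSO, with overlap between all groups. The antisense transcript Cyp4x1os ranged from 0.61 to 2.15 FPKM, and Cyp4x1 itself did not exceed 0.05.

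Flavopiridol was compared with DMSO within each genotype. The comparison in PKD uses the same PKD_DMSO libraries as that of PKD_DMSO with WT_DMSO, so these comparisons are not independent. Between PKD_FP and PKD_DMSO, limma called 0 members higher and 0 lower, against 0.00695% of all genes in each direction and 0.0139% in either. At an unadjusted p under 0.05, 0 members were higher and 8 lower, namely Cyp4f17, Cyp4a14, Cyp2d9, Cyp39a1, Cyp2a5, Cyp2e1, Cyp4v3 and Cyp4f18, against 10.3% of all genes higher and 9.14% lower at that p. The groups did not overlap in 5 members higher and 14 lower in PKD_FP, against 31.4% and 25.2% of all genes (56.6% in either direction), and the members' median was -0.23, against 0.04 for all genes.

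The plot by genotype and drug shows the 6 genes with the smallest p. Cyp4a14 had 67.7 and 20.7 FPKM in PKD_FP, against 206 and 148 in PKD_DMSO, with a log2 fold change of -2.18 (SE 0.60, adjusted p = 0.148). Cyp2a5 had 17.2 and 6.42 FPKM in PKD_FP, against 84.3 and 34.9 in PKD_DMSO, with a log2 fold change of -2.25 (SE 0.70, adjusted p = 0.170). None of the 6 passed the adjusted threshold. For Cyp2e1 the log2 fold change was -1.46 (SE 0.52, adjusted p = 0.202), for Cyp2d9 it was -1.45 (SE 0.41, adjusted p = 0.155), for Cyp4f17 it was -0.76 (SE 0.17, adjusted p = 0.125) and for Cyp39a1 it was -0.57 (SE 0.17, adjusted p = 0.157). In each of these genes both PKD_FP libraries lay below both PKD_DMSO libraries.

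**Figure D5:**
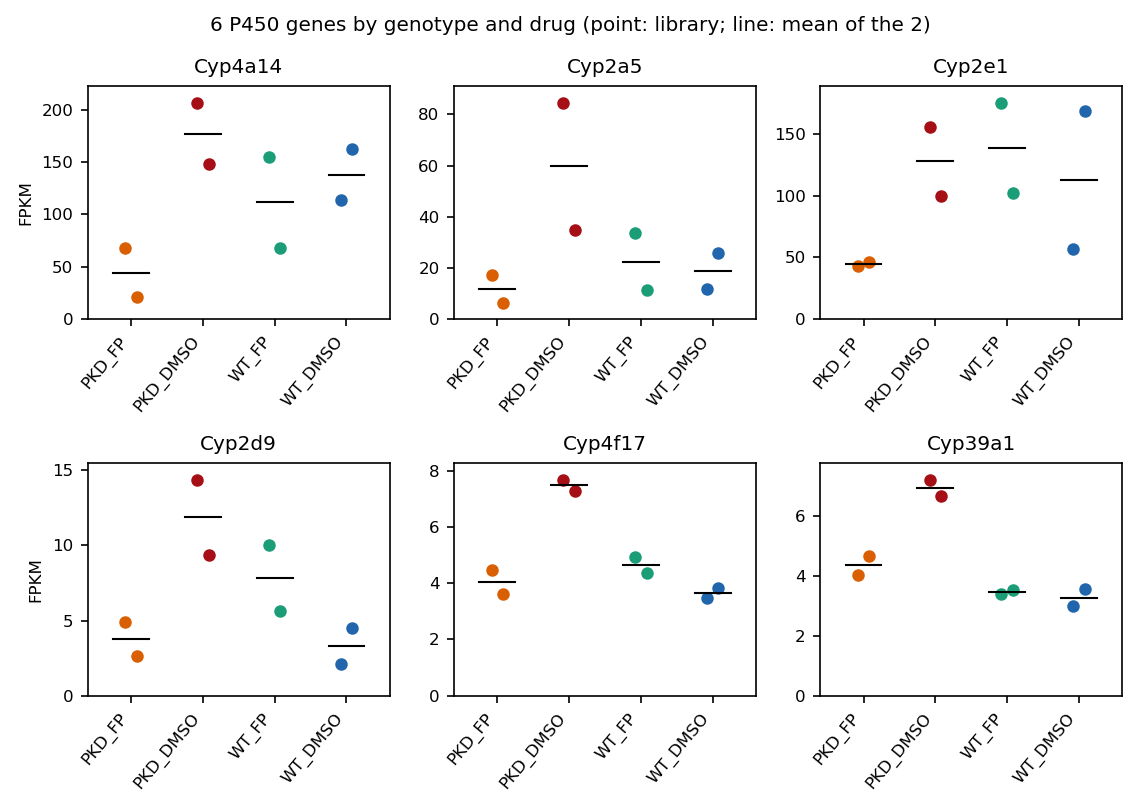
FPKM of 6 P450 genes in the 4 groups, 1 point per library, with a line at the mean of the 2 libraries. Both PKD_FP points lie below both PKD_DMSO points in every panel, while the WT_FP points overlap those of WT_DMSO in Cyp4a14, Cyp2a5, Cyp2e1 and Cyp39a1.

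Between WT_FP and WT_DMSO, limma called 0 members in either direction, against 0% of all genes. At an unadjusted p under 0.05, 1 member was higher (Cyp2d9) and 0 lower, against 0.91% of all genes higher and 0.361% lower. Cyp2d9 had 10.1 and 5.61 FPKM in WT_FP, against 2.08 and 4.51 in WT_DMSO, with a log2 fold change of 1.05 (SE 0.41, adjusted p = 1). Cyp2d22 (log2 fold change 0.38, SE 0.21) and Cyp2d40 (0.45, SE 0.26) had the next smallest p-values, both with an adjusted p of 1. The groups did not overlap in 8 members higher and 1 lower in WT_FP, against 16.6% and 5.32% of all genes (21.9% in either direction).

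The genotype dependence of the drug response was tested as an interaction term. It called 0 members and 0% of all genes, with 5 members at an unadjusted p under 0.05, all with a more negative drug response in PKD than in WT. At that p, 6.78% of all genes had a more negative response in PKD and 4.45% a more positive one. These were Cyp4f17 (interaction -1.03, SE 0.24), Cyp2d9 (-2.50, SE 0.58), Cyp39a1 (-0.64, SE 0.23), Cyp2e1 (-1.91, SE 0.73) and Cyp2a5 (-2.41, SE 0.99), on the log2 scale. The smallest adjusted p, 0.384, was that of Cyp4f17 and Cyp2d9. The members' median interaction was -0.32, against -0.05 for all genes. The interaction also uses the PKD_DMSO libraries, and Cyp4f17, Cyp2d9 and Cyp39a1 were among the members called higher in PKD_DMSO against WT_DMSO.

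Partners of the P450 enzymes were read from lists of other genes. The counts of these lists stand beside the shares of all genes tested. Those were 8.71% higher and 5.23% lower in PKD_FP against WT_FP, and 14.8% higher and 7.52% lower in PKD_DMSO against WT_DMSO. Of 17 genes for electron donors and heme supply, 1 rose and 2 fell in PKD_FP against WT_FP, and 1 rose and 5 fell in PKD_DMSO against WT_DMSO. Por, the reductase of microsomal P450s, was at 28.7 and 22.0 FPKM in PKD_FP, 55.4 and 54.4 in PKD_DMSO, 104 and 63.5 in WT_FP and 66.6 and 112 in WT_DMSO, and fell in PKD_FP against WT_FP (log2 fold change -1.65, SE 0.32, adjusted p = 0.0229). Cyb5a, cytochrome b5, fell in both comparisons (log2 fold change -1.26, SE 0.32, adjusted p = 0.0448 under flavopiridol, and -1.27, SE 0.32, adjusted p = 0.0329 under DMSO). Under DMSO the mitochondrial electron donors Fdx1 and Fdxr fell too, as did the heme synthesis genes Alad and Uros. The cytochrome b5 reductase gene Cyb5r3 rose in both comparisons.

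Of 22 xenobiotic and lipid sensors tested, 0 rose and 6 fell in PKD_FP against WT_FP, with Nr1h4, Ppara, Nr1h3, Nr1i3 and Ppargc1a among them. In PKD_DMSO against WT_DMSO, Ahr rose (log2 fold change 1.27, SE 0.30, adjusted p = 0.0280) and 4 fell, with Nr0b2, Nr1h3 and Ppargc1a among them. Ppara, the sensor that drives Cyp4a10 and Cyp4a14, was at 11.0 and 7.88 FPKM in PKD_FP, 22.1 and 15.8 in PKD_DMSO, 20.5 and 19.1 in WT_FP and 20.1 and 18.7 in WT_DMSO. Its 2 lowest libraries were those of PKD_FP. The 2 lowest libraries were also those of PKD_FP for Cyp4a14, but PKD_FP replicate 1 (67.67 FPKM) was nearly level with WT_FP replicate 2 (67.85 FPKM). For Cyp4a10 the 2 lowest were PKD_FP replicate 2 and PKD_DMSO replicate 2. The part of Ppara in these levels was not tested. Of 21 PPAR alpha targets other than P450 genes, 0 rose and 7 fell in PKD_FP against WT_FP (median log2 fold change -0.85, against 0.07 for all genes), and 1 rose and 2 fell in PKD_DMSO against WT_DMSO (median -0.15, against 0.12).

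Of 6 aryl hydrocarbon receptor targets tested, 1 rose and 0 fell in each genotype comparison, in both cases Nfe2l2, a regulator of antioxidant genes. Among 14 other eicosanoid and epoxide enzymes, 2 rose and 0 fell in PKD_FP (Alox5ap and the prostaglandin synthase Ptgds), and 1 rose and 0 fell in PKD_DMSO. The gene that rose in both was Alox5ap, which serves leukotriene synthesis in myeloid cells, at 12.6 and 17.8 FPKM in PKD_FP, 14.2 and 28.4 in PKD_DMSO, 2.70 and 1.61 in WT_FP and 4.10 and 2.74 in WT_DMSO. Of 9 retinoic acid genes, 2 rose and 0 fell in PKD_FP, and 3 rose and 1 fell in PKD_DMSO. Aldh1a2, a retinoic acid synthase, was at 35.1 and 49.4 FPKM in PKD_FP, 15.3 and 33.0 in PKD_DMSO, 3.79 and 1.62 in WT_FP and 2.76 and 2.26 in WT_DMSO. Of the 3 P450 genes with other symbols, Cyp51 of cholesterol synthesis fell in PKD_DMSO against WT_DMSO (log2 fold change -1.22, SE 0.30, adjusted p = 0.0308), and none was called in PKD_FP against WT_FP. Between PKD_FP and PKD_DMSO, 0 genes of any of these lists were called.

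Of the 47 P450 symbols below the level, 40 reached 1 FPKM in no library and 7 in 1 library. Just outside the threshold, the highest value was 2.31 FPKM for Cyp4f15, 1.53 for Cyp2u1, 1.18 for the vitamin D hydroxylase Cyp2r1 and 1.03 for Cyp3a13, Cyp26a1 and Cyp4f41-ps, and 1.01 for Cyp2j12. Just inside it, Cyp4f18, Cyp26b1, Cyp4x1os and Cyp4a12a reached 1 FPKM in 3 libraries each. The hydrocarbon-induced Cyp1a1 was at 0.22 and 0.82 FPKM in PKD_FP, 0.17 and 0.06 in PKD_DMSO, 0.71 and 0.94 in WT_FP and 0.69 and 0.84 in WT_DMSO. The steroid-making genes Cyp11a1, Cyp17a1 and Cyp19a1 and the liver gene Cyp3a11 did not exceed 0.50 FPKM in any library.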

How the data were processed

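Per the labels' protocols, RNA was extracted with TRIzol and selected with oligo(dT) before sequencing. The submitters' processing notes list Bowtie2, DESeq2 and mm10 and do not say how each was used. The deposited values have 2 decimals and no unit in their headers. They were taken as FPKM made by the authors because their sums varied between libraries with a CV of 5.65%, while sums of value times transcript length varied by 1.62% over 19476 genes matched to GENCODE. The deposited FPKM give no read depth, so no counting interval was computed. Of 20245 entries per file, 4 with a repeated symbol and 1 with a dash for a symbol were left out.

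The genes reaching 1 FPKM in 2 or more libraries were fitted as log2(FPKM + 1) with limma 3.58.1 in R 4.3.3, with 1 mean for each of the 4 groups (empirical Bayes, trend and robust on, two-sided). The fit was also run on simulated data drawn with its own fitted spread, with changes only in genes of higher level. That run does not show how the fit behaves for low genes. Alternatives were a pseudocount of 0.1, no filter, a filter of 3 FPKM, median-of-ratios and quantile scaling, the replicate block, only the groups compared, leaving out each library, and, chosen after seeing the data, leaving out the 2 libraries highest in fat markers. Same-numbered libraries correlated between -0.515 and 0.485 in their deviations from group means, so replicate numbers were not taken as pairs. Values per library are given for the 15 most abundant members, those called, the 3 with the smallest p where none was called, and a fixed list. Members and lists were chosen with earlier results of these data known. A gene of the sensor list is counted but not reported here.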

Additional observations from a re-analysis of the deposited data

Results flagged for a closer look

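Cyp2d9 and Cyp4f17 were flagged because both flavopiridol libraries lay below both vehicle libraries in polycystic kidneys and above them in wild-type kidneys. Of all genes tested, 25.2% lay below without overlap in polycystic kidneys and 16.6% above in wild-type kidneys. The share of all genes that met both was not computed, so these 2 are not shown to be unusual. Cyp2d9 had 4.87 and 2.65 FPKM in PKD_FP, against 14.4 and 9.39 in PKD_DMSO, and 10.1 and 5.61 FPKM in WT_FP, against 2.08 and 4.51 in WT_DMSO. Its interaction was -2.50 on the log2 scale (SE 0.58, limma adjusted p = 0.384). Cyp4f17 had 4.48 and 3.61 FPKM in PKD_FP, against 7.68 and 7.29 in PKD_DMSO, and 4.92 and 4.35 FPKM in WT_FP, against 3.47 and 3.82 in WT_DMSO. Its interaction was -1.03 (SE 0.24, limma adjusted p = 0.384). Neither interaction passed the adjusted threshold, and over the alternatives the adjusted p ranged from 0.318 to 0.877 in both genes.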

How the results depend on the processing

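The number of members called depended on the processing, and an alternative could call members other than those named above. Between PKD_DMSO and WT_DMSO, the 7 higher calls became 4 with quantile normalization and 1 to 8 when 1 library was left out. The 3 lower calls became 1 with only the groups compared, 1 with the 2 libraries highest in fat markers left out (chosen after seeing the data) and 0 to 3 when 1 library was left out. Between PKD_FP and WT_FP, the 2 higher calls became 0 with no low-value filter, 1 with the stricter filter, 1 with median-of-ratios scaling, 1 with quantile normalization, 1 with only the groups compared, 0 with those 2 libraries left out and 0 to 1 when 1 library was left out. The 4 lower calls became 7 with quantile normalization, 0 with those 2 libraries left out and 0 to 6 when 1 library was left out. Each fit that leaves out a library has fewer samples, and where a group is left with 1 library it is assumed to vary like the others. The cause of the other changes was not tested. The counts of 0 for both drug comparisons and the interaction were 0 under every alternative run.

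With the replicate number as a block, PKD_FP against WT_FP had 0 members higher and 2 lower, and PKD_DMSO against WT_DMSO had 6 higher and 2 lower. The libraries share only a number.

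The sign of some members that passed no test reversed. Between PKD_DMSO and WT_DMSO, leaving out 1 library gave log2 fold changes of -0.64 to 1.54 for Cyp4b1, -0.43 to 1.12 for Cyp2e1 and -0.37 to 0.64 for Cyp20a1, the negative ends without WT_DMSO replicate 1 for the first 2 genes and without WT_DMSO replicate 2 for Cyp20a1. Cyp20a1 was also at -0.011 with median-of-ratios scaling and -0.034 with quantile normalization. Between PKD_FP and PKD_DMSO, leaving out 1 library gave -0.62 to 0.65 for Cyp2c44 (-0.62 without PKD_FP replicate 1 and -0.36 without PKD_DMSO replicate 2) and -0.82 to 0.30 for Cyp2d26 (0.30 without PKD_FP replicate 2 and 0.20 without PKD_DMSO replicate 1). Cyp2c44 was at -0.032 with median-of-ratios scaling, and Cyp2d26 at 0.30 with the 2 libraries highest in fat markers left out. Between PKD_FP and WT_FP, leaving out 1 library gave -0.17 to 0.87 for Cyp20a1 (-0.17 without WT_FP replicate 1) and -0.12 to 0.43 for Cyp2s1 (-0.12 without WT_FP replicate 2 and -0.06 without PKD_FP replicate 1). No called member reversed. Some members that had not passed were called under at least 1 alternative. Between PKD_DMSO and WT_DMSO these were Cyp2c44, Cyp2d37-ps, Cyp46a1, Cyp4a12b and Cyp4a31. Between PKD_FP and WT_FP they were Cyp27a1, Cyp2e1, Cyp2j5, Cyp4a10 and Cyp4a12b. Over the alternatives other than the one chosen after seeing the data, called genes kept their call in 111 cases and lost it in 46 between PKD_DMSO and WT_DMSO, and kept it in 52 and lost it in 42 between PKD_FP and WT_FP.

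With 2 libraries a group and unknown depth, a change that did not pass is not shown to be absent. Values of near-identical copies depend on how the authors assigned shared reads, which could not be read from the labels.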
